A study of Homo sapiens with 16 samples.

Results

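The dual-specificity MAPK phosphatases are enzymes that switch off MAP kinases. The 10 genes described here, DUSP1, DUSP2, DUSP4, DUSP5, DUSP6, DUSP7, DUSP8, DUSP10, DUSP14 and DUSP16, were taken by gene name from GENCODE 29, out of 35055 gene names with a matched transcript. Each gene's value is the sum over its annotated transcripts. RNA sequencing was done on HEK293, an established human embryonic kidney line, in 4 groups of 4 libraries. The cells overexpressed the RNF43 frameshift variant G659fs, the frameshift variant R117fs, wild-type RNF43 (WT) or green fluorescent protein (GFP). RNF43 is a membrane E3 ubiquitin ligase that removes Wnt receptors, and by its title the series asked what expression profiles tell about the function of gene variants. The sources used here do not name the promoter of the constructs or the way they were delivered, nor say whether the libraries of a group came from different cultures. The p-values below therefore measure the spread between these libraries, which may be technical.

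MAP kinases (ERK, JNK and p38) are activated when a threonine and a tyrosine in the same loop are phosphorylated, and a dual-specificity phosphatase removes both phosphates. DUSP1, DUSP2, DUSP4 and DUSP5 are nuclear enzymes whose transcription is induced by MAP kinase signalling, DUSP6 and DUSP7 are cytoplasmic and prefer ERK, and DUSP8, DUSP10 and DUSP16 prefer JNK and p38. Because ERK signalling induces several of these genes, in particular DUSP4, DUSP5 and DUSP6, their transcripts are known as parts of a negative feedback loop and are often read as a sign of ERK activity. DUSP14 is a small phosphatase of the same superfamily that lacks the kinase-binding domain.

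Total estimated counts were 29886062 to 44738520 in G659fs, 20364357 to 41161835 in R117fs, 32761360 to 46779570 in WT and 25441077 to 30937321 in GFP libraries. RNF43 itself averaged 39390 CPM in G659fs, 68440 CPM in R117fs, 53345 CPM in WT and 31.4 CPM in GFP cells (CPM, counts per 1000000 after TMM scaling). The HEK293 markers VIM, KRT8, KRT18 and NEFM summed to 718 to 946 TPM in every library, most of it VIM, where TPM is transcripts per 1000000, a value scaled by length. NEFM was at 108 to 149 TPM in G659fs, 79.2 to 131 TPM in R117fs and 87.0 to 162 TPM in WT, against 56.5 to 77.0 TPM in GFP. KRT8 went the other way in G659fs, at 39.6 to 45.4 TPM, against 55.0 to 66.5 TPM in GFP. It was at 50.8 to 75.8 TPM in R117fs and 48.0 to 61.8 TPM in WT. KRT18 was at 63.9 to 66.5 TPM in G659fs, inside its GFP range of 59.6 to 68.3 TPM. In R117fs and WT it was at 69.7 to 85.8 TPM and 69.7 to 72.0 TPM. The VIM ranges of all groups overlapped. The sum of 4 fibroblast markers, nearly all COL1A1 (COL1A2 was near 0), was 22.8 to 31.7 TPM in G659fs, 16.4 to 27.8 TPM in R117fs, 14.007 to 19.5 TPM in WT and 21.2 to 23.2 TPM in GFP. The part of these markers in the results below was not tested. R117fs replicate 4 stood apart: its genes' deviations from the other R117fs libraries had an SD of 0.578 on the log2 scale, the highest of the 16 libraries, and they followed GC content (Spearman 0.799 across genes, which are not independent). R117fs replicate 1 also lay apart, with a chi-square statistic of at least 71.2 for each degree of freedom against the other R117fs libraries, where replicates 2 and 3 differed by 5.47.

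Of the 4 nuclear phosphatase genes, DUSP1, DUSP4 and DUSP5 were higher in G659fs cells than in both GFP and R117fs cells, by 1.39-fold to 1.85-fold, and DUSP2 did not pass. All 10 genes passed the filter on low counts. A gene was called changed at an adjusted p under 0.05 in edgeR's quasi-likelihood test, with Benjamini-Hochberg adjustment over all 16777 genes tested. For G659fs over GFP, DUSP1, DUSP4 and DUSP5 rose and DUSP14 fell, so that 4 of 10 members were called where 25.4% of all genes tested were (3 higher, against 11.6%, and 1 lower, against 13.8%). For G659fs over R117fs, DUSP1, DUSP4 and DUSP5 rose and no member fell, 3 of 10 against 14.4% of all genes in either direction and 6.34% in the higher one. DUSP1 fell in R117fs relative to WT (1 of 10, against 8.14% of all genes), and DUSP8 fell in WT relative to GFP (1 of 10, against 21.5%). No member was called for R117fs over GFP, where 15.6% of all genes were, and none had an unadjusted p under 0.05. There DESeq2 called no member and 3247 of all genes. None was called for G659fs over WT either, where 5.69% of all genes were. DUSP1, DUSP4 and DUSP5 had an unadjusted p under 0.05 there, for which the share over all genes was not counted. DESeq2 called 1 member, DUSP4, and 1663 of all genes.

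**Figure D1:**
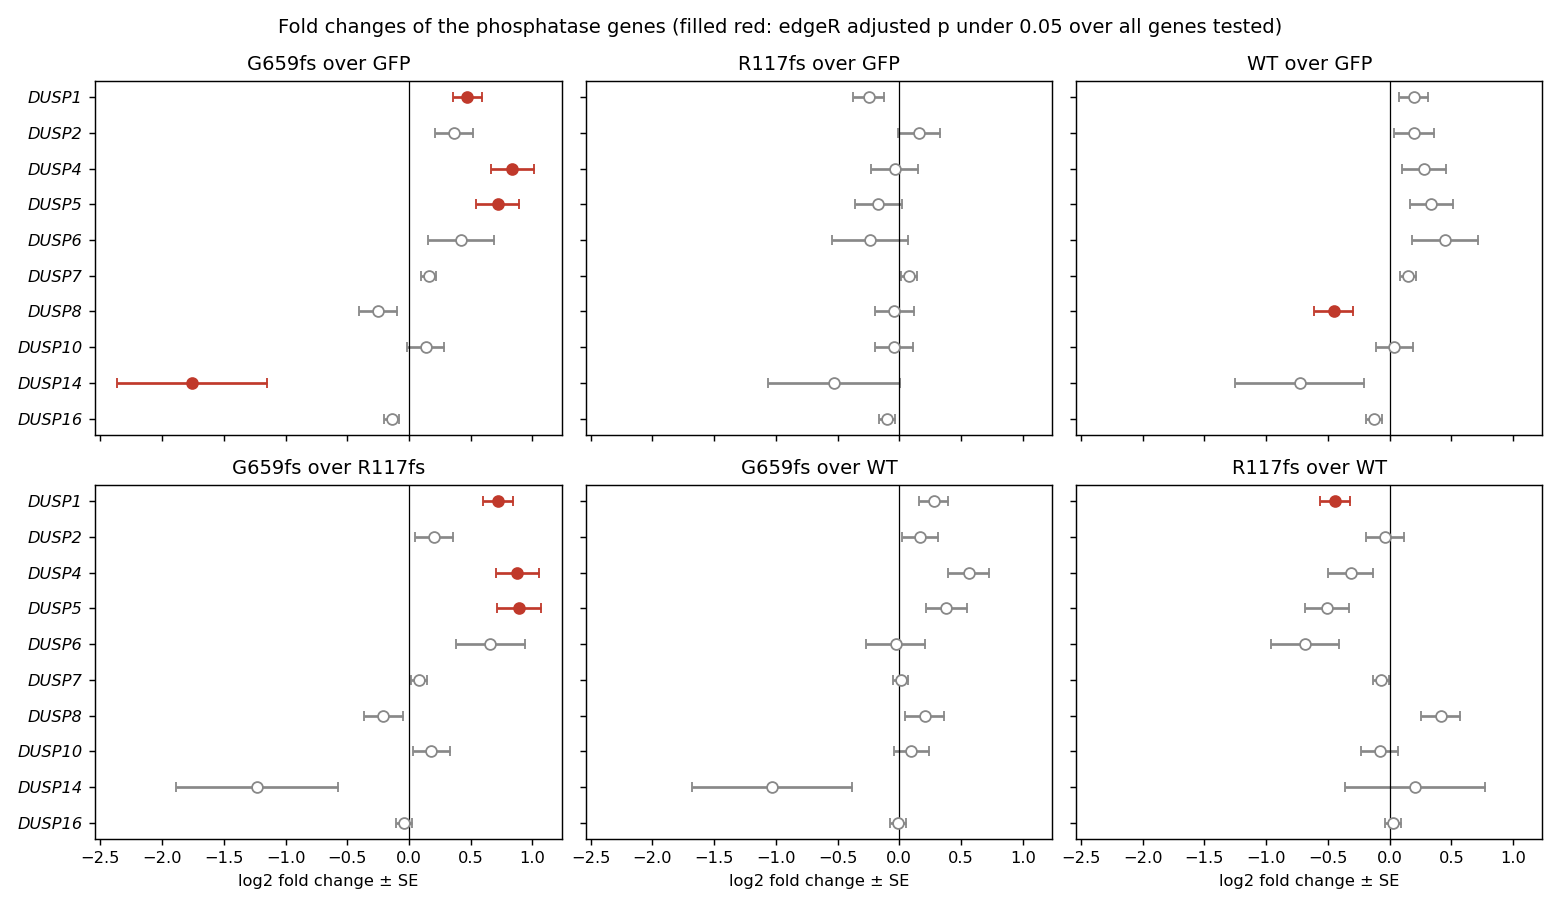
Log2 fold change (horizontal axis, ± SE from the edgeR fit) of each of the 10 phosphatase genes (rows) in the 6 comparisons (panels). Filled red points passed an adjusted p of 0.05 over all 16777 genes; DUSP1, DUSP4 and DUSP5 are filled and right of 0 in both G659fs over GFP and G659fs over R117fs, and DUSP14 lies far left with wide errors.

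The median log2 fold change of the 10 members was 0.26 for G659fs over GFP and 0.19 for G659fs over R117fs, against medians of -0.0001 and 0.0046 over all genes tested. It was 0.17 for WT over GFP, -0.07 for R117fs over GFP, -0.08 for R117fs over WT and 0.13 for G659fs over WT, where the medians over all genes lay between -0.0088 and 0.001. The comparisons over GFP share the same 4 GFP libraries, so their values are not independent of each other. In bulk RNA, a change in the share of cells that hold a transcript cannot be told apart from a change in its amount per cell.

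The levels per length differed widely between members. DUSP1, the broadly expressed first member of the family, was on top, with 38.4 ± 2.16 TPM in G659fs, 23.1 ± 3.08 TPM in R117fs, 30.8 ± 5.68 TPM in WT and 29.6 ± 2.65 TPM in GFP cells (SD, n = 4 each). DUSP7 was second in each group, with 19.6 ± 0.956 TPM in G659fs, 18.3 ± 0.584 TPM in R117fs, 18.9 ± 0.433 TPM in WT and 18.7 ± 0.464 TPM in GFP. In R117fs the ranges of these 2 genes over the libraries overlapped. In G659fs DUSP4 (1.81 ± 0.0621 TPM) lay above DUSP6 (1.16 ± 0.333 TPM) with no overlap, while in R117fs, WT and GFP the ranges of these 2 genes overlapped. Below DUSP7 in GFP cells, DUSP16 (12.4 ± 0.714 TPM) and DUSP8 (11.3 ± 1.09 TPM) overlapped each other, and DUSP5 (4.26 ± 1.07 TPM) overlapped DUSP10 (3.93 ± 1.02 TPM). DUSP2 (1.65 ± 0.313 TPM), DUSP14 (1.28 ± 0.573 TPM), DUSP4 (1.09 ± 0.133 TPM) and DUSP6 (0.747 ± 0.222 TPM) formed a low group in GFP cells, in which each overlapped the next.

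**Figure D2:**
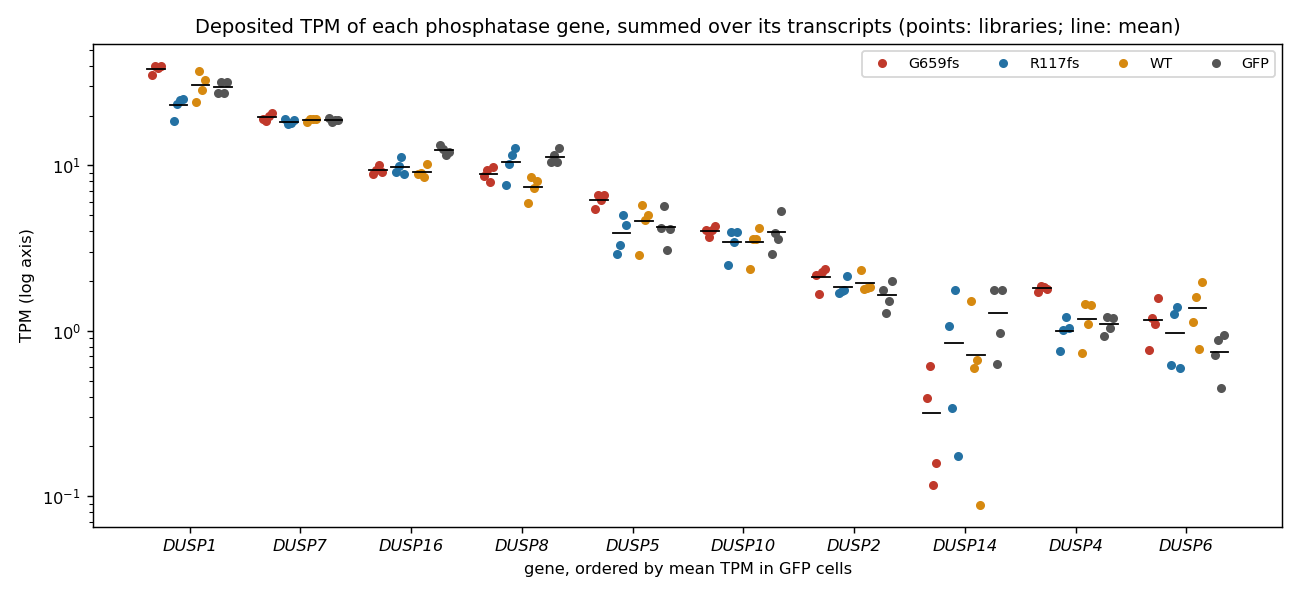
Deposited TPM, summed over each gene's transcripts (vertical log axis), of the 10 phosphatase genes ordered by their mean in GFP cells. Points are the 4 libraries of G659fs, R117fs, WT and GFP, from left to right, and lines are means; DUSP1 lies highest, with G659fs above R117fs, and DUSP14 spreads most.

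The proximal promoters of DUSP1, DUSP6 and DUSP8 are shown because DUSP1 rose in G659fs cells, DUSP6, a known ERK feedback gene, had no call, and DUSP1 and DUSP8 held the motifs found. Each is the 250 bases before the RefSeq gene start on GRCh38.p14, on the gene's strand, with matches to the searched motifs in capitals.
DUSP1 promoter (chr5:172771196-172771445, minus strand): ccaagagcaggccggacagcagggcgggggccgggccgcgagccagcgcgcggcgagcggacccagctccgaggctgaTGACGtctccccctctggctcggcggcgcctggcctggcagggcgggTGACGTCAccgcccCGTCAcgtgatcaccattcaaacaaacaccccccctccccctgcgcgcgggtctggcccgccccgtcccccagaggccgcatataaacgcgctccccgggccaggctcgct
DUSP6 promoter (chr12:89352502-89352751, minus strand): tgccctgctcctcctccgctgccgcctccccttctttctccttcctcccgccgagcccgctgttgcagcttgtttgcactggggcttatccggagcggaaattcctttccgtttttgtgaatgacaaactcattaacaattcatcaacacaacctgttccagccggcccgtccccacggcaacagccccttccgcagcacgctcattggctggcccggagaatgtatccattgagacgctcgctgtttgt
DUSP8 promoter (chr11:1572272-1572521, minus strand): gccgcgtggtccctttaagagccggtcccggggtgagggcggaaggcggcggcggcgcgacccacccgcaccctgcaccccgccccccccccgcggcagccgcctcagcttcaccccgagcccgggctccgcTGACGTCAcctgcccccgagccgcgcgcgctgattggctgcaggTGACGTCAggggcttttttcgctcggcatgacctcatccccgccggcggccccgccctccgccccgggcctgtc
The motifs searched on both strands were TGACG, the half-site of cAMP response elements, the full site TGACGTCA, the ETS core CCGGAAG, the AP-1 site TGANTCA and the CArG box of serum response factor. A promoter window was found for 8 of the 10 members (9 windows, since DUSP10 had more than 1), and DUSP4 and DUSP5 are named only. The DUSP1 window held 1 TGACGTCA, at positions -125 to -118, and 4 matches to TGACG, the outer ones starting at -172 and -111 and the rest lying inside the full site. The DUSP8 window held 2 TGACGTCA sites, at -118 to -111 and -74 to -67, and its 4 TGACG matches all lay inside them. None of the other windows held any of the 5 motifs. Over all 35116 RefSeq promoter windows of this length, 21.2% held TGACG, 1.65% TGACGTCA, 8.52% CCGGAAG, 6.57% TGANTCA and 1.16% a CArG box. The DUSP8 window lies before the RefSeq start of the gene and not before the start of the transcript that held nearly all DUSP8 counts, which lies inside the gene (described with DUSP8). These matches describe letters in the windows and were not tested as sites.

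Among the nuclear, signal-induced phosphatases, DUSP1 (ENSG00000120129; GRCh38 chromosome 5, 172768090 to 172771195, minus strand) acts on p38, JNK and ERK and is an early gene of stress and growth factor responses. It was at 50.3, 55.7, 53.6 and 56.2 CPM in the G659fs libraries. It was at 26.4, 31.7, 34.9 and 38.6 CPM in R117fs, at 35.1, 53.9, 41.1 and 47.4 CPM in WT and at 36.8, 42.3, 35.1 and 41.3 CPM in GFP. All 4 G659fs libraries lay above all R117fs and all GFP libraries, while WT replicates 2 and 4 lay above every GFP library and WT replicate 1 was level with the lowest. DUSP1 was 1.39-fold higher in G659fs than in GFP (log2 0.47 ± 0.12 SE, edgeR adjusted p = 0.00768) and 1.65-fold higher than in R117fs (log2 0.72 ± 0.12, edgeR adjusted p = 0.000845). Both calls held in 26 of 26 alternatives of processing and of libraries. Relative to WT, DUSP1 fell by 0.44 ± 0.12 on the log2 scale in R117fs (edgeR adjusted p = 0.0326), but the groups overlapped and the call held in 18 of 26 alternatives. It was lost without WT replicate 2, 3 or 4 (edgeR adjusted p = 0.126, 0.0544 and 0.0956), without R117fs replicate 1 or 2 (0.0644 and 0.0731) and without R117fs replicates 1 and 4 together (0.0532). For R117fs over GFP the log2 value was -0.25 ± 0.12 and for WT over GFP 0.19 ± 0.12, neither of them called.

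DUSP4 (ENSG00000120875; chromosome 8, 29333064 to 29350668, minus strand), a nuclear phosphatase induced by ERK signalling, varied little among the G659fs libraries. It was at 7.21, 7.62, 7.28 and 7.42 CPM in G659fs, a coefficient of variation of 2.45%. It was at 3.11, 3.92, 4.97 and 4.62 CPM in R117fs, at 3.13, 6.14, 4.59 and 6.09 CPM in WT and at 3.57, 4.75, 3.90 and 4.32 CPM in GFP. The lowest G659fs library was above the highest library of every other group, and R117fs and GFP covered nearly the same range. DUSP4 rose 1.79-fold in G659fs relative to GFP (log2 0.84 ± 0.17, edgeR adjusted p = 0.00188) and 1.84-fold relative to R117fs (log2 0.88 ± 0.17, edgeR adjusted p = 0.00299), in 26 of 26 alternatives each. Relative to WT it was 1.47-fold higher in G659fs (log2 0.56 ± 0.16) with an edgeR adjusted p of 0.05003, just short of the threshold. Of 26 alternatives 12 called it, with edgeR or DESeq2 adjusted p between 0.00253 and 0.154 over all of them. For groups that do not overlap in the higher direction, this was 1 of 10 members in G659fs over WT, against 12.3% of all genes. The log2 value was -0.04 ± 0.19 for R117fs over GFP and 0.28 ± 0.18 for WT over GFP, neither of them called.

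DUSP5 (ENSG00000138166; chromosome 10, 110497838 to 110511544, plus strand), a nuclear phosphatase specific for ERK, was at 8.33, 10.8, 11.1 and 11.3 CPM in G659fs. It was at 4.19, 5.57, 6.89 and 6.47 CPM in R117fs, at 5.42, 9.65, 7.62 and 9.20 CPM in WT and at 6.004, 7.33, 5.16 and 6.89 CPM in GFP. Every G659fs library lay above every R117fs and GFP library, and the G659fs and WT ranges overlapped. In G659fs over R117fs, DUSP1, DUSP4 and DUSP5 were thus higher without overlap, 3 of 10 members against 9.29% of all genes. DUSP5 rose 1.65-fold in G659fs relative to GFP (log2 0.72 ± 0.17, edgeR adjusted p = 0.00566) and 1.85-fold relative to R117fs (log2 0.89 ± 0.18, edgeR adjusted p = 0.00303), again in 26 of 26 alternatives each. Without R117fs replicates 1 and 4 the difference of G659fs from R117fs was 0.69 for DUSP1, 0.77 for DUSP4 and 0.77 for DUSP5 on the log2 scale, with edgeR adjusted p of 0.00268, 0.00971 and 0.0148. The values for R117fs relative to WT were -0.51 ± 0.18 for DUSP5 and -0.32 ± 0.18 for DUSP4 and did not pass (edgeR adjusted p = 0.088 and 0.279).

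**Figure D3:**
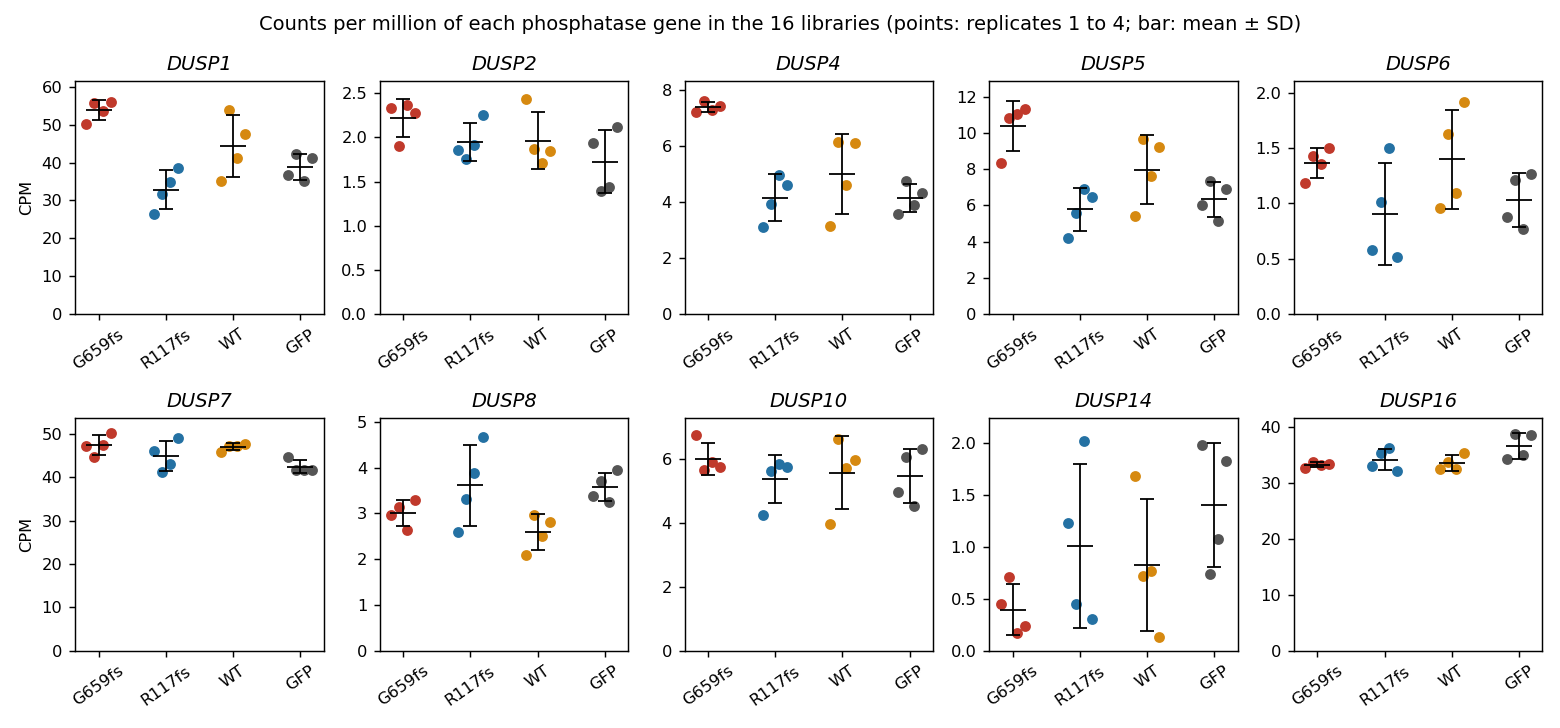
CPM (vertical axes, from 0) of each phosphatase gene in the 16 libraries, with G659fs, R117fs, WT and GFP from left to right; points are replicates 1 to 4 and bars the mean ± SD. For DUSP1, DUSP4 and DUSP5 the G659fs points lie above all R117fs and GFP points, and for DUSP4 also above all WT points.

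DUSP2 (ENSG00000158050; chromosome 2, 96143166 to 96145440, minus strand), the remaining nuclear member and best known from activated immune cells, was scarce. It was at 2.33, 1.91, 2.37 and 2.28 CPM in G659fs, 1.86, 1.76, 1.92 and 2.26 CPM in R117fs, 2.43, 1.87, 1.71 and 1.85 CPM in WT and 1.94, 1.40, 1.44 and 2.12 CPM in GFP. All 4 groups overlapped. Its largest difference, 0.37 ± 0.16 on the log2 scale for G659fs over GFP, did not pass (edgeR adjusted p = 0.0979), and no alternative called it in any comparison.

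Neither of the cytoplasmic ERK phosphatases passed the test in any comparison. DUSP6 (ENSG00000139318; chromosome 12, 89347232 to 89353271, minus strand), the phosphatase most often read as ERK feedback, rested on only 10 to 72 estimated counts per library. It was at 1.18, 1.42, 1.36 and 1.498 CPM in G659fs, 0.58, 1.01, 1.503 and 0.51 CPM in R117fs, 0.96, 1.63, 1.09 and 1.91 CPM in WT and 0.87, 1.21, 0.77 and 1.27 CPM in GFP. All groups overlapped, and R117fs replicates 1 and 4 lay below every library of the other groups. The log2 difference was 0.42 ± 0.27 for G659fs over GFP, 0.45 ± 0.27 for WT over GFP and -0.24 ± 0.31 for R117fs over GFP, and edgeR's adjusted p was at least 0.248 for each. For G659fs over R117fs it was 0.66 ± 0.28 (edgeR adjusted p = 0.121), and 0.20 without R117fs replicates 1 and 4. The standard errors of DUSP6 over the 6 comparisons were 0.24 to 0.31, against 0.16 to 0.19 for DUSP4. The coefficient of variation of DUSP6 was 9.79% in G659fs, against 50.8% in R117fs, 32.2% in WT and 24.0% in GFP. It was also lowest in G659fs for DUSP1, DUSP2, DUSP4, DUSP5, DUSP10 and DUSP16, but not for DUSP7, DUSP8 and DUSP14. How often this held over all genes was not counted. The SD, over all genes, of a library's log2 deviations from the rest of its group was 0.272 to 0.328 in G659fs. It was 0.291 to 0.320 in WT, 0.311 to 0.362 in GFP and 0.338 to 0.578 in R117fs.

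DUSP7 (ENSG00000164086; chromosome 3, 52048919 to 52056550, minus strand), a cytoplasmic phosphatase for ERK, was among the steadiest members, with a root-mean-square spread of 0.0885 on the log2 scale over the 16 libraries. It was at 47.2, 44.8, 47.5 and 50.3 CPM in G659fs and 46.1, 41.3, 43.2 and 49.0 CPM in R117fs. It was at 45.9, 47.2, 47.4 and 47.8 CPM in WT and 44.7, 41.7, 41.6 and 41.7 CPM in GFP. In CPM all G659fs and all WT libraries lay just above all GFP libraries. The log2 difference was 0.16 ± 0.06 for G659fs and 0.15 ± 0.06 for WT, which did not pass (edgeR adjusted p = 0.0694 and 0.0975). On the TPM scale, which lacks the TMM scaling, the ranges overlapped. They were 18.5 to 20.7 TPM in G659fs, 18.3 to 19.2 TPM in WT and 18.2 to 19.3 TPM in GFP. Counted in CPM, 4 of 10 members (DUSP1, DUSP4, DUSP5 and DUSP7) were higher without overlap in G659fs over GFP, against 19.1% of all genes. The members lower without overlap were 2 (DUSP14 and DUSP16), against 18.8%. In WT over GFP 1 member, DUSP7, was higher in CPM without overlap, against 17.1% of all genes, and 1, DUSP8, was lower, against 16.7%. DUSP7 was called in 7 of 26 alternatives for G659fs over GFP and in 5 of 26 for WT over GFP, and each set included the fit without R117fs replicates 1 and 4 (edgeR adjusted p = 0.00619 and 0.0112).

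Of the phosphatases directed at JNK and p38, DUSP16 and DUSP10 had no call. DUSP16 (ENSG00000111266; chromosome 12, 12474210 to 12562383, minus strand), which acts on JNK and p38, had the smallest spread of the family, 0.0806 on the log2 scale. It was at 32.5, 33.6, 33.2 and 33.4 CPM in G659fs, 32.9, 35.2, 36.2 and 32.1 CPM in R117fs, 32.4, 33.6, 32.4 and 35.4 CPM in WT and 34.3, 38.6, 34.9 and 38.5 CPM in GFP. Every G659fs library was below every GFP library, by 0.14 ± 0.06 on the log2 scale, which did not pass (edgeR adjusted p = 0.113). On the TPM scale its gap looked larger, at 9.36 ± 0.520 TPM in G659fs, 9.77 ± 1.04 in R117fs and 9.15 ± 0.756 in WT against 12.4 ± 0.714 TPM in GFP. TPM sums weigh counts on short transcripts more, and they lack the TMM scaling of CPM. The TMM factors were 1.054 to 1.076 in GFP and 0.962 to 1.001 in the other groups. The 5253-base transcript ENST00000298573 alone was at 9.13 TPM in GFP, against 7.84 in G659fs, 7.45 in R117fs and 7.79 in WT. The part of each in the gap was not tested, and no test was run on the TPM scale. DUSP10 (ENSG00000143507; chromosome 1, 221701424 to 221742176, minus strand), which acts on p38 and JNK, was at 5.67 to 6.76 CPM in G659fs, 4.27 to 5.85 CPM in R117fs, 3.97 to 6.64 CPM in WT and 4.55 to 6.33 CPM in GFP. Its groups all overlapped, its log2 differences lay between -0.08 and 0.18 over the 6 comparisons, and it was called in none of them or of their alternatives.

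DUSP8 (ENSG00000184545; chromosome 11, 1554044 to 1571920, minus strand), a JNK and p38 phosphatase known from brain and heart, was the member that fell in WT relative to GFP. It was at 2.96, 3.15, 2.64 and 3.30 CPM in G659fs, 2.58, 3.31, 3.89 and 4.67 CPM in R117fs, 2.09, 2.96, 2.50 and 2.82 CPM in WT and 3.38, 3.72, 3.26 and 3.95 CPM in GFP. WT lay wholly below GFP, and the R117fs range covered all 4 GFP values. The fall in WT was 0.45 ± 0.16 on the log2 scale (log2 -0.45, edgeR adjusted p = 0.0476) and held in 11 of 25 alternatives. It was lost without any 1 of the 4 GFP libraries, WT replicates 1, 3 or 4, R117fs replicates 2 or 3 or any G659fs library, with edgeR adjusted p between 0.0509 and 0.13. For G659fs over GFP the value was -0.25 ± 0.16 and for R117fs over GFP -0.04 ± 0.16, neither of them called.

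The DUSP8 counts lay almost wholly on a noncoding transcript. Between 99.6% and 100% of the gene's estimated counts in a library lay on ENST00000528778, a noncoding processed transcript of 637 bases. It has 5 exons, of which the first (chromosome 11, 1559310 to 1559443, minus strand, 134 bases) is not exonic in the coding transcripts. That exon is shown because it is what sets the counted transcript apart, in capitals and followed in lower case by the first 30 bases of the next exon, on the GENCODE 29 transcript strand.
DUSP8 ENST00000528778 exon 1: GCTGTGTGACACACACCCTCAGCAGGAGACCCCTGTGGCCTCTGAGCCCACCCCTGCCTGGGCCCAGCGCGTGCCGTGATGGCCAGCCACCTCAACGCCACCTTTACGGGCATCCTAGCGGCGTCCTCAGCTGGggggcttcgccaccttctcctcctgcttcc
Of the 31-base words of this transcript, 22.2% also occur in the pseudogenes DUSP8P3, DUSP8P4 and DUSP8P5, with 16.3% in DUSP8P5. Reads on such words are divided between genes by estimation, so the DUSP8 values are uncertain. All 134 bases of the first exon lie in words of no other gene. The coding transcript ENST00000397374 shared 6.99% of its words, while DUSP5 shared 0.673%, DUSP4 0.2% and the other members none. DUSP1, DUSP6, DUSP8 and DUSP16 lie across genes annotated on the opposite strand, which are not analysed here, and no strand setting is known for the counts.

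DUSP14 (ENSG00000276023; chromosome 17, 37489831 to 37513501, plus strand), which can act on ERK, JNK and p38 in biochemical assays, was the most variable member and rested on 4.4 to 58.3 estimated counts per library. It was at 0.45, 0.71, 0.17 and 0.24 CPM in G659fs, 1.23, 0.45, 2.02 and 0.31 CPM in R117fs, 1.68, 0.72, 0.77 and 0.13 CPM in WT and 1.98, 0.74, 1.08 and 1.83 CPM in GFP. The G659fs libraries were all below the GFP libraries, although the highest G659fs value was close to the lowest GFP value, and R117fs and WT spread over ranges that took in most of the GFP and G659fs values. DUSP14 fell by 1.76 ± 0.61 on the log2 scale in G659fs relative to GFP (log2 -1.76, edgeR adjusted p = 0.044). The call held in 15 of 26 alternatives. It was lost without GFP replicate 1, 3 or 4 or G659fs replicate 1, 3 or 4 (edgeR adjusted p between 0.0578 and 0.119), without WT replicate 2 or 3 (0.0536 and 0.0545) and without R117fs replicates 1 and 4 (0.0559). The value was -0.73 ± 0.52 for WT over GFP and -0.53 ± 0.54 for R117fs over GFP, neither of them called.

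Several members drew their counts from more than 1 annotated transcript. In DUSP6 the longest transcript, ENST00000279488 (4400 bases, protein coding), held 29.8% ± 10.1 of the counts in G659fs, 20.7% ± 13.8 in R117fs, 31.1% ± 2.12 in WT and 54.0% ± 14.7 in GFP (SD, n = 4 each). The coding transcript ENST00000308385 (1959 bases) held 46.7% ± 11.1 in G659fs, 43.6% ± 10.1 in R117fs, 40.1% ± 13.3 in WT and 31.3% ± 13.2 in GFP. The lowest GFP share of ENST00000279488, 42.5%, was above every share in the other groups, the highest of which was 41.4% in G659fs. These shares rest on few counts and were not tested. For DUSP14 the shares of its 3 coding transcripts ranged from near 0% to near 100% between libraries of 1 group. DUSP10 had 10.3% ± 7.002 of its counts in G659fs, 8.13% ± 4.62 in R117fs, 10.04% ± 6.08 in WT and 13.3% ± 9.19 in GFP on ENST00000477026, a transcript annotated for nonsense-mediated decay. DUSP16 counts lay mostly on ENST00000298573 (5253 bases), with 92.1% ± 1.87 in G659fs, 85.3% ± 9.44 in R117fs, 93.3% ± 2.09 in WT and 91.0% ± 1.79 in GFP. DUSP1 had 1 quantified transcript, and DUSP4 and DUSP7 had at least 98% of their mean counts on 1 coding transcript in each group.

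**Figure D4:**
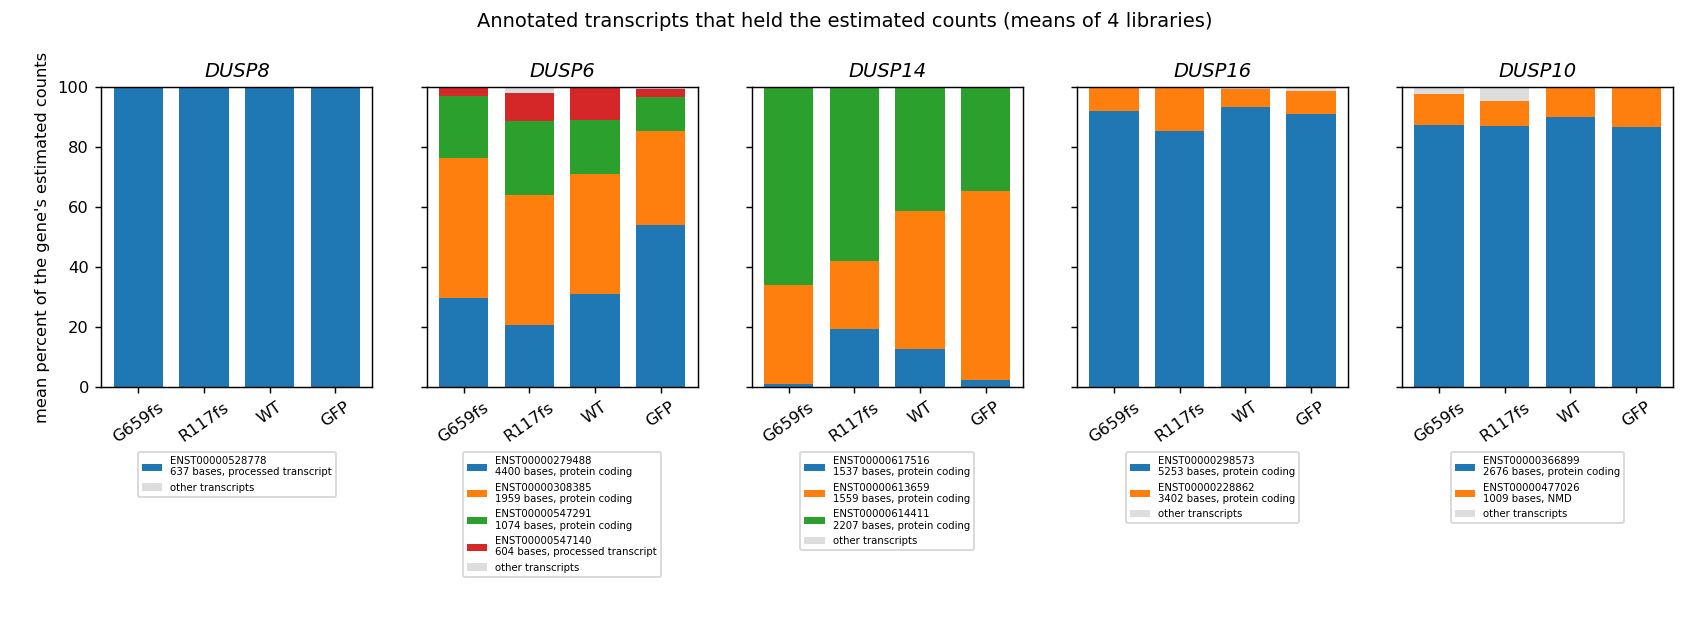
Mean percent of each gene's estimated counts (vertical axes) held by its annotated transcripts in G659fs, R117fs, WT and GFP (4 libraries each), for DUSP8, DUSP6, DUSP14, DUSP16 and DUSP10. DUSP8 is a single block of the noncoding 637-base transcript, DUSP6 and DUSP14 are split, and GFP has the largest share of the 4400-base DUSP6 transcript at 54.0%.

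Other transcripts known to depend on ERK were set beside the phosphatases. Of 18 tested genes of that list, 13 rose and 0 fell in G659fs relative to GFP, where 11.6% of all genes rose and 13.8% fell, with a median log2 value of 0.58 against -0.0001 over all genes. Over the alternatives 11 to 15 rose and 0 to 1 fell. EGR1, an immediate early transcription factor, was at 57.0 ± 4.53 CPM in G659fs and 7.98 ± 1.60 CPM in GFP (log2 2.84 ± 0.20, edgeR adjusted p = 1.1e-07). SPRY4, a feedback inhibitor of receptor tyrosine kinase signalling, was at 2.16 ± 0.208 CPM in G659fs and 0.384 ± 0.091 CPM in GFP (log2 2.50 ± 0.27). FOS and ETV5, a transcription factor of the ETS family, rose by 2.18 ± 0.37 and 1.82 ± 0.22. In the same comparison DUSP1, DUSP4 and DUSP5 had log2 values of 0.47 to 0.84.

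Against R117fs the list went the same way in G659fs, with 11 higher and 0 lower (against 6.34% and 8.02% of all genes) and a median of 0.82, led by ETV5 (3.66 ± 0.28), SPRY4 (3.63 ± 0.33), EGR1 (3.04 ± 0.21) and ETV4 (2.84 ± 0.32). In WT relative to GFP 8 rose and 0 fell (against 9.86% and 11.6% of all genes; median 0.38), among them EGR1 (2.44 ± 0.20), SPRY4 (1.83 ± 0.30), FOS (1.48 ± 0.38) and ETV5 (1.10 ± 0.23), where DUSP1, DUSP4, DUSP5 and DUSP6 had 0.19 to 0.45 and were not called. The 8 became 5 without GFP replicate 1, 3 or 4 or WT replicate 2 or 4, without the low-count filter or with protein-coding transcripts only. In R117fs relative to WT 0 rose and 9 fell (against 4.52% and 3.62% of all genes), with EGR1 at -2.64 ± 0.21, SPRY4 at -2.96 ± 0.36, ETV5 at -2.94 ± 0.30 and ETV1 at -1.87 ± 0.32. The 9 became 4 with only the 8 libraries compared and were at most 11 over the alternatives. In R117fs relative to GFP 5 fell (against 8.57% of all genes), led by ETV5 (-1.84 ± 0.34), ETV4 (-1.43 ± 0.40) and ETV1 (-1.35 ± 0.36), and 1 rose (against 7.05%), MYC (0.34 ± 0.09), named here after its value was seen. Without R117fs replicates 1 and 4 this count was 2 lower and 1 higher, and 3 and 2 were lower without GFP replicate 2 and without GFP replicate 4. In G659fs relative to WT 2 rose, ETV4 (1.12 ± 0.23) and ETV5 (0.72 ± 0.19), and 0 fell (against 2.32% and 3.36% of all genes). This count was 0 without G659fs replicate 2 or 3 or WT replicate 3, 1 without G659fs replicate 1 or 4 or WT replicate 1 or 4, 4 without R117fs replicate 1 or WT replicate 2 and 6 without R117fs replicates 1 and 4. The phosphatases named above and these genes were not tested against each other.

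**Figure D5:**
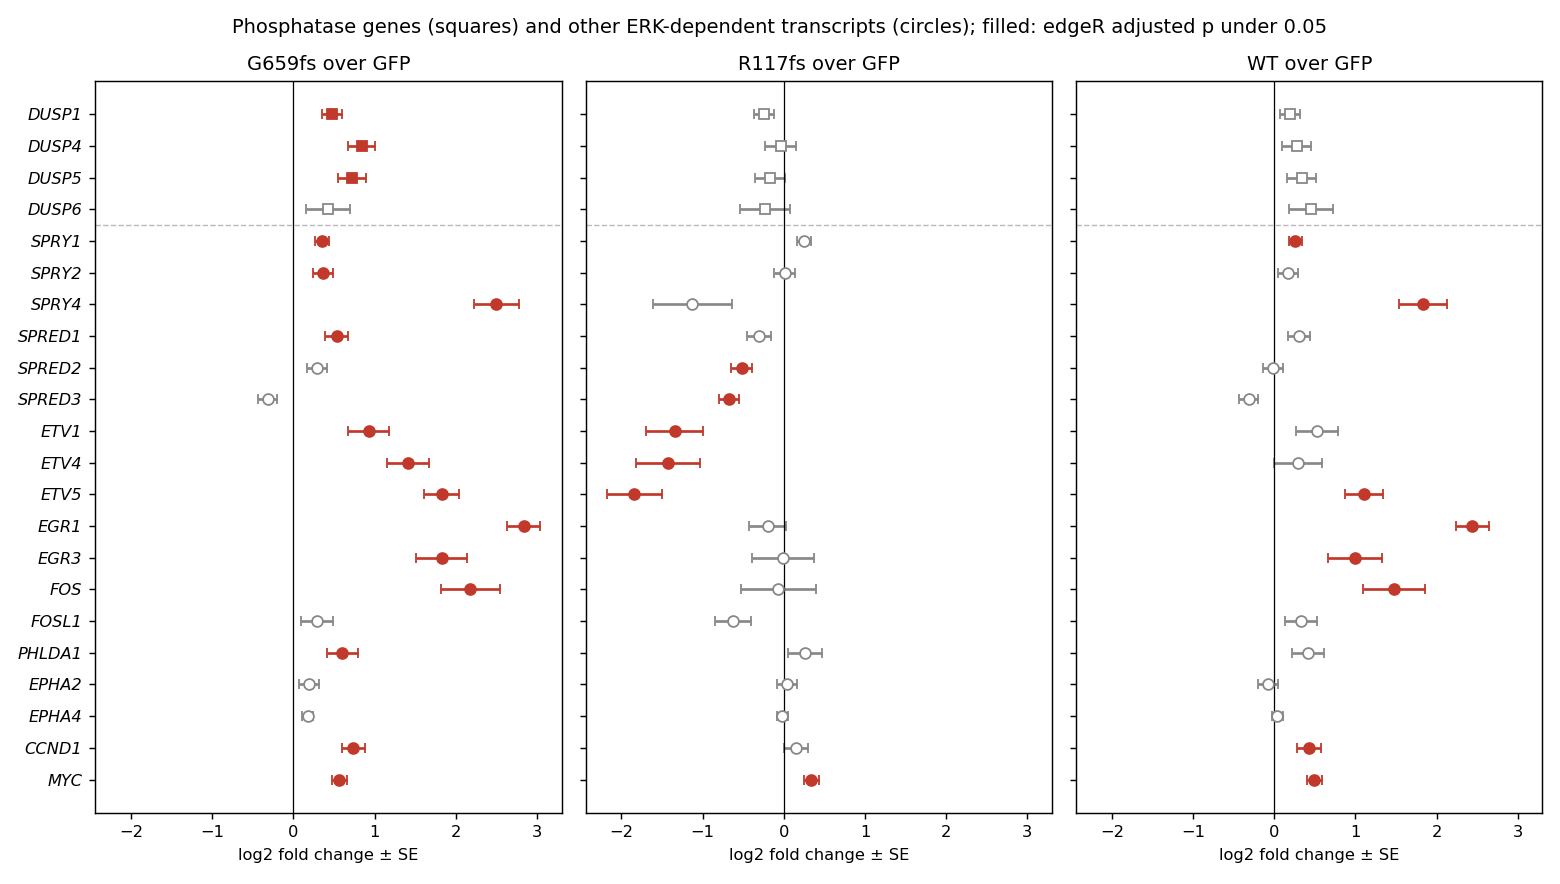
Log2 fold change ± SE (horizontal axes) of DUSP1, DUSP4, DUSP5 and DUSP6 (squares) and of 18 other ERK-dependent transcripts (circles) in G659fs, R117fs and WT over GFP. Filled points passed an edgeR adjusted p of 0.05; in G659fs DUSP1, DUSP4 and DUSP5 lie at 0.47 to 0.84 while EGR1, SPRY4 and FOS lie above 2, and in R117fs ETV1, ETV4 and ETV5 lie left of 0.

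The kinases and adaptors upstream and downstream of ERK, a substrate of several of these phosphatases, were also looked at. Of 20 ERK pathway kinases and adaptors, 1 rose and 6 fell in G659fs relative to GFP, where 11.6% of all genes rose and 13.8% fell, with the Ras exchange factor SOS2 at -0.44 ± 0.09, HRAS at -0.44 ± 0.10, the scaffold KSR1 at -0.42 ± 0.06 and BRAF at -0.40 ± 0.10. Over the alternatives 1 to 4 rose and 5 to 6 fell. In R117fs relative to GFP 2 rose and 4 fell (against 7.05% and 8.57% of all genes), with 0 to 5 and 0 to 8 over the alternatives. In WT relative to GFP 1 rose and 5 fell (against 9.86% and 11.6%), with 0 to 3 and 3 to 10 over the alternatives, the 10 reached without R117fs replicate 4 and the 3 without WT replicate 2. None of the 20 was called by edgeR for R117fs over WT (against 8.14% of all genes), and up to 3 were in the alternatives. In G659fs relative to WT 0 rose and 1 fell (against 2.32% and 3.36%), with 0 to 4 and 0 to 5 over the alternatives. In G659fs relative to R117fs 0 rose and 2 fell (against 6.34% and 8.02%), with 0 to 4 and 1 to 7. These counts are small and moved with the processing and with single libraries.

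By the likeness rule, the 5 tested genes whose centred log2 CPM ran closest to DUSP6 over the 16 libraries were SRGN, SGK1, HIST1H4E, FILIP1L and WBP1LP2, with root-mean-square differences of 0.166, 0.184, 0.250, 0.257 and 0.263. Their means over the libraries were 0.299 CPM for SRGN, 0.507 CPM for WBP1LP2, 1.47 CPM for HIST1H4E, 3.005 CPM for FILIP1L and 7.64 CPM for SGK1, where the group means of DUSP6 were 0.902 to 1.396 CPM. Within the family DUSP5, at 0.316, and DUSP1, at 0.347, ran closest to DUSP6, and DUSP14, at 1.29, farthest.

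Single libraries were low or high for many members at once. WT replicate 1 was the lowest WT library for 8 of the 10 members and had the least RNF43 of its group, 42147 CPM against 52847 to 59767 CPM. R117fs replicate 1 was the lowest of its group for 5 members and had 30191 CPM of RNF43, against 69360 to 94571 CPM in the other R117fs libraries. G659fs replicate 1 was also lowest for 5 members, but the least RNF43 of that group was in replicate 3. GFP replicate 3 was lowest for 6 members and GFP replicate 1 had the least RNF43 of its group, and R117fs replicate 3 was highest for 6. How many of all genes were lowest or highest in each library was not counted, so a trait of these members cannot be told apart from one of whole libraries. The part of the RNF43 level in the phosphatase values was not tested.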

How the data were processed

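RNA was measured by sequencing in 16 HEK293 libraries, 4 per group, grouped by the labels. Quantification used kallisto 0.45.1 and GRCh38, per the submitters' processing notes; the sources used here give no annotation release or strand setting. The authors deposited, for 178136 transcripts per library, an estimated count and a TPM value, which is scaled by effective length. The lengths in the deposited files were used for 1 alternative. Transcripts were matched by identifier to GENCODE 29 (162453, or 91.2%, matched, 89.55% in the same version), and the unmatched ones, 1.904% to 2.216% of a library's counts, were left out. Estimated counts were summed per gene name and rounded, and TPM was summed without a test.

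Of 28011 genes with counts, 16777 passed edgeR's filterByExpr and went into edgeR's quasi-likelihood test (version 4.0.16, R version 4.3.3, TMM, robust quasi-likelihood fit, 1 coefficient per group over all 16 libraries, Benjamini-Hochberg over all genes tested). The common biological coefficient of variation was 0.103. On simulated counts for WT over GFP (16610 genes), 90% of 200 changed genes were recovered and 4.8% of calls were false. Whether these 2 rates hold for the measured libraries, or for the fold changes reported here, was not tested. Standard errors were derived from fold changes and F values. Log2 CPM for likeness used a prior count of 2. DESeq2 1.42.0 was an alternative, with other normalization, no filter, the 8 libraries compared, GC and length offsets, a replicate block and each library left out. Protein-coding transcripts only and leaving out R117fs replicates 1 and 4 were chosen after seeing the data. The closest pair in a group had a chi-square of 3.52 for each degree of freedom, and none was treated as a duplicate. RefSeq promoters were of GRCh38.p14.

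The members and gene lists were chosen with earlier results of these data known. All members were named, together with up to 4 called genes of largest absolute log2 fold change per list and comparison, transcripts with at least 10% of a member's counts in any group and the 5 genes most like DUSP6. Marker lists of gut epithelium, mostly CDX2, and of hepatocytes summed to 22.4 to 30.2 TPM and 0.714 to 4.64 TPM in a library.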

Additional observations from a re-analysis of the deposited data

Results flagged for a closer look

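In 40 groups of 4 libraries (10 genes in 4 groups), 2 held a library far from the other 3 of its group by Dixon's criterion, and chance alone flags about 1 in 20. DUSP7 was at 44.6891 CPM in GFP replicate 1, the highest GFP library, and its gap to the next made up 0.978 of the group's range. DUSP10 was at 4.2656 CPM in R117fs replicate 1, the lowest R117fs library, with a gap of 0.872 of the range.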

How the results depend on the processing

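No result changed sign past the threshold under any alternative run. The number of the 10 members called for WT over GFP, 1, became 0 without the low-count filter or with protein-coding transcripts only, 2 with the 8 libraries compared or the length offset, and 3 with the GC trend removed or without R117fs replicates 1 and 4. For R117fs over WT, 1 became 0 with the 8 libraries, protein-coding transcripts only or without R117fs replicates 1 and 4, and 3 with the GC trend removed. For G659fs over WT, 0 became 1 with RLE normalization, DESeq2, the 8 libraries, the GC trend removed, the length offset or without R117fs replicates 1 and 4. Leaving out 1 library gave 3 to 6 members for G659fs over GFP, 3 to 4 for G659fs over R117fs, 0 to 2 for WT over GFP and for R117fs over WT, 0 to 1 for G659fs over WT and 0 for R117fs over GFP.

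Whether replicate numbers pair the libraries was not settled. Of 24 same-numbered pairs, 4 correlated above 0.1 (-0.058 to 0.159), and different-numbered pairs lay between -0.202 and 0.178. Of 16 libraries 8 correlated best with their own number, where 4 would if the numbers carried nothing. DUSP4 was lowest in replicate 1 in each of the 4 groups. No other member was lowest in the same replicate number in all 4, and this was not counted over all genes. With a replicate block, 2 members were called for R117fs over WT and 1 for G659fs over WT, DUSP4 (adjusted p = 0.0177 in edgeR's test). Of all genes, 1842 and 1341 were called in these 2 comparisons with the block. With the block and the GC trend removed, the counts were 7 for G659fs over GFP, 1 for R117fs over GFP, 4 for WT over GFP, 3 for R117fs over WT and 3 for G659fs over WT, and over all genes 7319, 5190, 6946, 3739 and 4105, with 5549 for G659fs over R117fs.

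Over all genes, for G659fs over GFP, 4262 became 6961 with the 8 libraries, 6806 with the GC trend removed and 7276 without R117fs replicates 1 and 4. For G659fs over R117fs, 2409 became 801, 4892 and 4550 in the same order, for WT over GFP 3608 became 5919, 6380 and 6713, and for R117fs over WT 1366 became 154, 2985 and 3375. For R117fs over GFP, 2620 became 588 and 4662 with the first 2 of these. For G659fs over WT, 954 became 4662, 3371 and 4152, and 1663 with DESeq2, 600 without the filter and 542 with coding transcripts only, which left 852 for R117fs over WT. Leaving out 1 library gave 3066 to 6724 for G659fs over GFP, 1458 to 3703 for R117fs over GFP, 2219 to 6133 for WT over GFP, 626 to 2610 for R117fs over WT, 100 to 3534 for G659fs over WT and 1318 to 4010 for G659fs over R117fs. The causes were not tested. Few counts limit DUSP6, DUSP14, DUSP8 and DUSP2.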

Other observations

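Phosphatases outside the 10 members included a fall common to the 3 RNF43 groups. Of 15 tested dual-specificity and kinase-directed tyrosine phosphatases, 3 rose and 2 fell in G659fs relative to GFP (against 11.6% and 13.8% of all genes), 1 rose and 1 fell in R117fs (against 7.05% and 8.57%) and 0 rose and 3 fell in WT (against 9.86% and 11.6%). DUSP13, a phosphatase of testis and skeletal muscle, was at 0.192 ± 0.047 CPM in G659fs, 0.207 ± 0.077 in R117fs and 0.227 ± 0.077 in WT against 0.977 ± 0.241 CPM in GFP (SD, n = 4 each). Its log2 values were -2.33 ± 0.28, -2.33 ± 0.30 and -2.06 ± 0.27, called in 26 of 26 alternatives each, and the counts behind them are few. STYXL1, a catalytically inactive relative, was at 16.2 ± 0.151 CPM in G659fs and 24.2 ± 1.16 CPM in GFP (log2 -0.58 ± 0.07). It was lower in G659fs than in R117fs (-0.63 ± 0.07) and WT (-0.36 ± 0.07) as well. DUSP9, a cytoplasmic ERK phosphatase, was at 48.9 ± 2.21 CPM in G659fs and 38.1 ± 2.24 CPM in GFP (log2 0.36 ± 0.11), and PTPN5, a tyrosine phosphatase of neurons, had 0.68 ± 0.18 in the same comparison.

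Among 18 JNK and p38 kinases and their upstream and downstream kinases, 3 rose and 3 fell in G659fs relative to GFP (against 11.6% and 13.8% of all genes). In R117fs 1 rose and 0 fell (against 7.05% and 8.57%), and in WT 1 rose and 3 fell (against 9.86% and 11.6%). MAPK10, the JNK gene of neurons, was at 1.67 ± 0.342 CPM in G659fs, 3.42 ± 0.424 in R117fs, 2.04 ± 0.355 in WT and 2.97 ± 0.294 CPM in GFP. It fell in G659fs and in WT relative to GFP (log2 -0.83 ± 0.16 and -0.56 ± 0.15) and rose in R117fs relative to WT (0.77 ± 0.15). MAPK11, a p38 gene, followed with -0.45 ± 0.12 for G659fs over GFP, -0.48 ± 0.12 for WT over GFP and 0.49 ± 0.12 for R117fs over WT. In G659fs relative to WT 0 of the 18 were called by edgeR (against 5.69% of all genes), and 0 to 3 rose and 0 fell over the alternatives.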
